A study of Mus musculus with 4 samples.

Results

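The neuropeptide and calcium-binding protein genes that divide cortical interneurons into classes were followed in single nuclei of GCLC-KO mouse cortex. They are 10 of the 32285 genes in the count tables, chosen by symbol: the peptide genes Sst, Vip, Npy, Cck, Tac1, Penk and Crh, and the calcium-binding protein genes Pvalb, Calb1 and Calb2. They were picked by name as known class genes and not by a value threshold, with earlier results of these data known. Mice with a floxed Gclc gene, which encodes the catalytic subunit of the first enzyme of glutathione synthesis, had been crossed with CaMKII-Cre mice, and all 4 mice carried both alleles. Nuclei came from 2 mice aged 3 months (3M-1 and 3M-2) and 2 aged 6 months (6M-1 and 6M-2), none of them treated, with 1 library per mouse. Values per library are given in that order, the younger pair first. There was no wild-type library here, so each comparison is one of age or of nucleus type within the knockout. The CaMKII promoter drives Cre mainly in forebrain excitatory neurons, so that interneurons are largely cells outside the targeted population. Tissue was cut from cortical regions rich in rod-shaped microglia, and nuclei were sorted on DAPI alone. The labels give no sex.

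Cortical inhibitory neurons form separate classes that are named after the peptide or calcium-binding protein they make. One broad branch arises in the medial ganglionic eminence, depends on the transcription factor LHX6 and holds the somatostatin and parvalbumin cells. The other arises mostly in the caudal ganglionic eminence, is marked in mouse cortex by Adarb2 and holds the VIP cells and neurogliaform cells. Peptides are cut from longer precursors and are released with GABA, whereas parvalbumin, calbindin and calretinin bind calcium ions inside the cell. Several peptide genes respond to cyclic AMP and neuronal activity, and the cyclic AMP response element of Sst is the textbook case of such a site.

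To show where this element sits, 30-base windows around its core are given from the RefSeq starts of genes in GRCm38.p6, 5′ to 3′ on the strand of the gene, with the core TGACG or its reverse complement CGTCA in capitals. RefSeq start windows were found for 6 of the 10 genes (Sst, Vip, Pvalb, Npy, Cck and Tac1).
Sst, chr16:23890875-23890904, minus strand, core 48 bases before the start: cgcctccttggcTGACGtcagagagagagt
Vip, chr10:5639127-5639156, plus strand, core 79 bases before the start: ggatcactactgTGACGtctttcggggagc
Cck, chr9:121495724-121495753, minus strand, core 47 bases before the start: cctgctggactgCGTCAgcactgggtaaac
Within the 250 bases before a start, Tac1 also held the core, at 2 places, whereas the windows of Npy and Pvalb held none. The 8-base palindrome TGACGTCA, which contains both cores overlapping, was found in the Sst window only, and 1.55% of all 32851 start windows held it. The 5-base core was common, occurring on either strand in 17.8% of all start windows and in 4 of the 7 windows of these genes. GENCODE M21 places the start of Sst further upstream, so the Sst window lies inside the gene as GENCODE draws it, while the Vip and Cck windows lie outside their genes. These matches describe letters only.

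Nuclei were sorted into types by raw counts of marker genes, and none of the 10 genes was a marker. A unique molecular identifier (UMI) marks 1 counted RNA molecule, and a nucleus entered a type with at least 3 UMIs of that type's markers and at least 2 times those of every other type. Of 30515 nuclei kept, 18262 were assigned a type, among them 2843 inhibitory nuclei (Gad1, Gad2 and Slc32a1) and 7477 excitatory nuclei (Slc17a7 and Slc17a6). The inhibitory nuclei divided into 2669 interneuron-type nuclei (Lhx6, Sox6, Nxph1, Adarb2 and Prox1), 73 spiny-type nuclei, which carried markers of striatal projection neurons, and a small rest. In each library 574 to 801 nuclei were interneuron-type, of which 346 to 470 were Lhx6-type and 197 to 273 Adarb2-type. Spiny-type nuclei numbered 23 and 32 at 3 months and 18 in 6M-1 and were not found in 6M-2, so that library is missing from every spiny-type value. Libraries held 63429297 to 71255054 UMIs, and each pair of libraries shared 12 to 19 barcodes. Gclc was counted in interneuron-type nuclei of all 4 libraries at 36.5 to 47.8 CPM (UMIs of the gene per 1000000 UMIs of the nucleus type in that library) and in excitatory nuclei at 34.1 to 40.8. These 3′ counts cannot show whether the floxed part was removed. Nuclei outside all types held 25.5% (Npy) to 43.5% (Calb2) of the UMIs of the 10 genes, so the levels describe the nuclei assigned a type.

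Interneuron-type nuclei were first compared with excitatory nuclei of the same mice, to show how far the 10 genes mark inhibitory neurons in this tissue. All 10 passed the test (edgeR with the mouse as a block, adjusted p under 0.05), where 55% of all 16848 genes tested did. A total of 9 were higher in interneuron-type nuclei and 1, Cck, was lower. Their median log2 fold change was 3.31, beside 0.03 over all genes tested. Levels in CPM are compared between types or libraries, never between genes.

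Vip, which encodes vasoactive intestinal peptide, had 96.8, 110, 77.5 and 99.3 CPM in interneuron-type nuclei of the 4 libraries. In excitatory nuclei it had 1.92, 2.63, 3.43 and 4.13 CPM. All 4 interneuron values lay far above all 4 excitatory values, and the log2 fold change was 4.84 ± 0.15 (SE, 4 mice; edgeR adjusted p = 2.04e-09). Sst, the somatostatin gene, had 19.1, 77.6, 75.2 and 51.2 CPM in interneuron-type nuclei and 2.19, 5.03, 5.53 and 5.19 in excitatory nuclei. The library 3M-1 was low for Sst in both types. The Sst difference was 3.42 ± 0.12 on the log2 scale. Npy, which encodes neuropeptide Y, had 29.8, 82.6, 71.1 and 46.5 CPM against 1.79, 4.40, 2.30 and 3.23, and again 3M-1 was the lowest in both types. Tac1, the precursor gene of substance P, had 16.8, 27.5, 27.3 and 19.0 CPM against 0.826 to 0.978.

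Penk and Crh were sparse in interneuron-type nuclei, with 281 and 188 UMIs in all. Penk, the precursor of the enkephalins, had 14.4, 12.4, 9.18 and 7.33 CPM in interneuron-type nuclei and 1.38 to 4.13 in excitatory nuclei, a difference of 2.03 ± 0.18 on the log2 scale. Penk overlaps an antisense gene, A830012C17Rik, and the counting of strand is not given in the sources used here. Crh, corticotropin-releasing hormone, had 6.54 to 8.50 CPM in interneuron-type nuclei and 0.490 to 0.843 in excitatory nuclei. Its 4 libraries lay closer together than those of Sst or Npy in interneuron-type nuclei.

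Of the calcium-binding protein genes, Pvalb (parvalbumin, of fast-spiking cells) had 22.0, 32.2, 25.4 and 22.3 CPM in interneuron-type nuclei. In excitatory nuclei it was counted 12, 12, 32 and 27 times, or 0.405 to 1.57 CPM. Calb1, the calbindin gene, stood at 71.6, 108, 74.7 and 53.0 CPM in interneuron-type nuclei and at 18.2, 24.2, 21.1 and 17.4 in excitatory nuclei. The types did not overlap for either gene, and the log2 differences were 4.74 ± 0.26 for Pvalb and 1.74 ± 0.08 for Calb1. Calb2, the calretinin gene, had 5.91 to 6.50 CPM against 0.629 to 1.38.

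Cck, which encodes cholecystokinin, went the other way, with 20.3, 38.6, 28.7 and 29.8 CPM in interneuron-type nuclei and 25.7, 49.4, 31.0 and 32.1 in excitatory nuclei. It was lower in interneuron-type nuclei of every mouse, though the ranges of the types overlapped (log2 fold change −0.40 ± 0.07, adjusted p = 0.000623). Without the mouse as a block the edgeR adjusted p was 0.153.

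**Figure D1:**
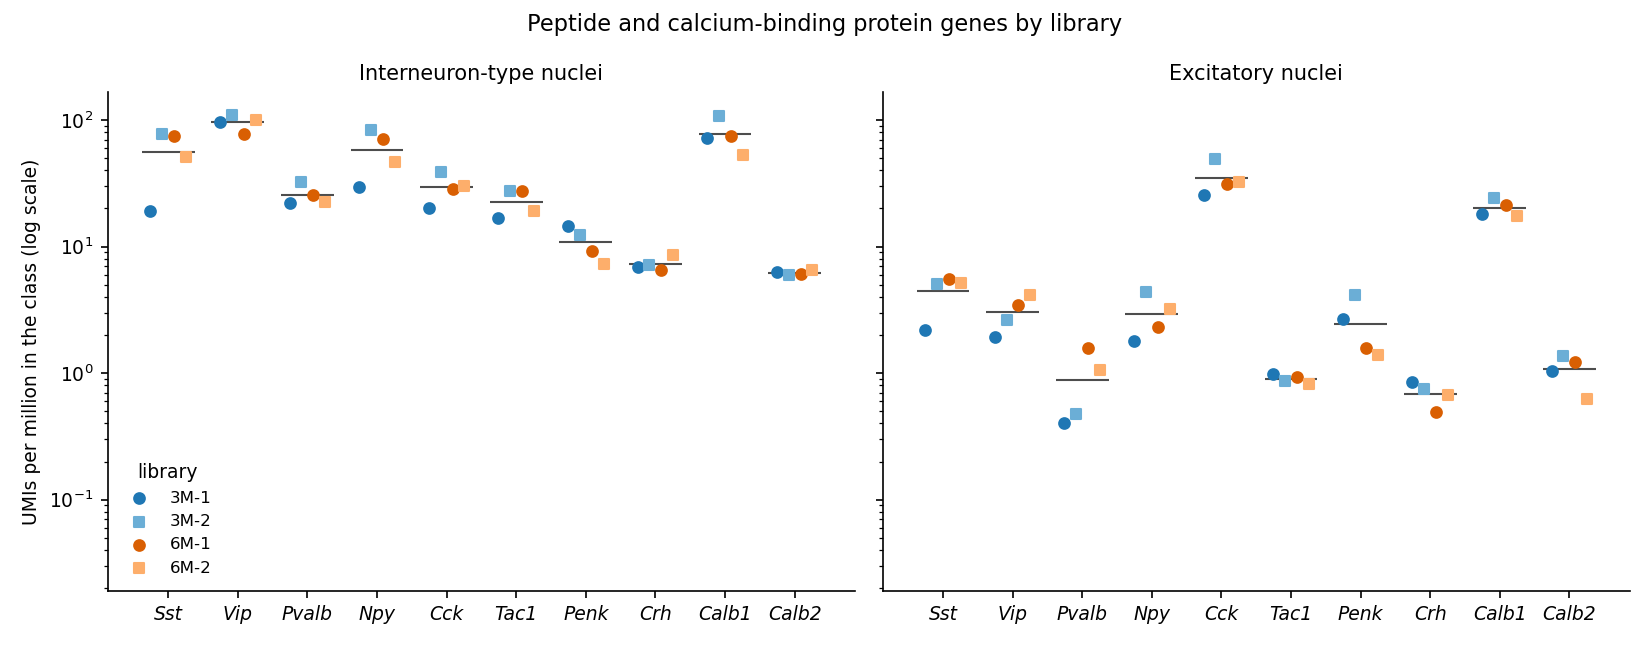
Level of each gene (CPM, log axis) in interneuron-type nuclei (left) and excitatory nuclei (right). Each point is 1 library (circles replicate 1, squares replicate 2, blue 3 months, orange 6 months) and each horizontal line the mean of 4. Cck is the gene with similar levels in both panels, and Sst of 3M-1 lies below the other 3 libraries on both sides.

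Free RNA in the droplets gives some counts to nuclei that do not make a gene, and oligodendrocyte-type nuclei show how much. In UMIs per nucleus, Sst came to 0.0328 to 0.0764 in excitatory and 0.0353 to 0.0966 in oligodendrocyte-type nuclei, although excitatory nuclei were deeper (median 10432 to 14014 UMIs against 1863 to 2990). Vip, Npy, Pvalb and Tac1 in excitatory nuclei were likewise within or near the range of oligodendrocyte-type nuclei. Excitatory levels of these 5 genes are therefore at or near background, and none of them was above it in all 4 libraries. Cck (0.384 to 0.570 UMIs per nucleus) and Calb1 (0.244 to 0.291) were above it in all 4 libraries, since oligodendrocyte-type nuclei held 0.081 to 0.162 and 0.0353 to 0.056. Calb2 (0.00883 to 0.0169 against 0.00228 to 0.00483) and Crh (0.00676 to 0.0126 against 0.00389 to 0.00628) were above it too, at far lower counts. Crh of 6M-1 was only just above it (0.00676 against 0.00628). Penk was below it in 3M-2 (0.0476 against 0.0507). In 3M-1 (0.0399 against 0.00684), 6M-1 (0.0216 against 0.0169) and 6M-2 (0.0193 against 0.007) Penk was above it. Against nuclei of the microglia type, Cck, Calb1 and Calb2 were also above in all 4 libraries. Crh was below them in 3M-2 (0.00862 against 0.111, where 1 nucleus held 42 Crh UMIs) and in 6M-2 (0.00938 against 0.0105). Penk was below them in 6M-1 (0.0216 against 0.0236). The standing of Crh and Penk thus depended on the type used as background.

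Excitatory neurons were then split by layer markers to see where Cck and Calb1 lay. Of 6 genes tested between upper-type and deep-type nuclei, these 2 passed, where 27.6% of all genes did. Calb1 had 26.8, 37.5, 40.2 and 23.8 CPM in upper-type nuclei and 11.9, 13.7, 13.0 and 14.3 in deep-type nuclei. The upper-type values were higher in every mouse, by 1.33 ± 0.13 on the log2 scale (edgeR adjusted p = 4.82e-06). Cck had 29.7, 49.1, 37.8 and 32.4 CPM against 15.8, 35.3, 24.9 and 27.9, a log2 difference of 0.62 ± 0.10. It was higher in upper-type nuclei of every mouse, with an adjusted p of 0.000411 by edgeR that rose to 0.105 without the mouse as a block.

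The branches of interneurons divided the 10 genes. Between Lhx6-type and Adarb2-type nuclei of the same mice all 10 passed the test, where 31.8% of 13036 genes did. In Lhx6-type nuclei 4 were higher (Sst, Pvalb, Tac1 and Calb1) and 6 were lower (Vip, Npy, Cck, Penk, Crh and Calb2). The 10 genes took no part in making the types.

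On the Lhx6 side, Sst had 29.5, 114, 113 and 71.9 CPM in Lhx6-type nuclei and 2.60, 6.86, 12.0 and 7.25 in Adarb2-type nuclei. Every Lhx6-type value exceeded every Adarb2-type value, with a log2 fold change of 3.46 ± 0.14 (edgeR adjusted p = 4.01e-12). Pvalb had 36.2, 47.6, 40.1 and 33.7 CPM against 0.434 to 2.50, where the latter rest on 1 to 5 UMIs per library. Its difference was 4.69 ± 0.24 on the log2 scale. Tac1 was higher in Lhx6-type nuclei by 2.38 ± 0.20 (25.1 to 37.5 CPM against 2.60 to 10.4). Calb1 had 109, 147, 106 and 71.1 CPM against 16.9 to 33.7, a log2 difference of 2.22 ± 0.12, and the branches did not overlap.

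On the Adarb2 side, Vip had 275, 360, 241 and 320 CPM in Adarb2-type nuclei and 1.99 to 4.20 in Lhx6-type nuclei. Its log2 fold change of −6.58 ± 0.11 was the largest of the 10 genes (edgeR adjusted p = 1.27e-16). Crh had 14.0 to 24.5 CPM in Adarb2-type nuclei, and in Lhx6-type nuclei it had 0.496 to 3.29, from 2 to 16 UMIs per library. Penk had 34.7, 34.3, 19.7 and 17.8 CPM against 1.53 to 4.73. Calb2 had 8.02 to 18.4 CPM against 1.53 to 5.14. The log2 fold changes were −3.19 ± 0.33 for Crh, −3.03 ± 0.24 for Penk and −2.19 ± 0.36 for Calb2, and for each of these genes the branches did not overlap. Cck was lower in Lhx6-type nuclei by −1.85 ± 0.14 on the log2 scale, with 12.2 to 23.5 CPM against 36.5 to 74.9.

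Npy was the gene shared by both branches. It had 28.3, 65.2, 55.7 and 45.1 CPM in Lhx6-type nuclei and 25.2, 109, 91.8 and 42.9 in Adarb2-type nuclei. The branches overlapped, and 2 of 4 mice had the higher level on each side. The edgeR fit gave −0.42 ± 0.13 (adjusted p = 0.0204), and the call was lost without 3M-2 (adjusted p = 0.195) and without 6M-1 (0.232), with DESeq2 (0.223) and without the mouse as a block (0.432).

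**Figure D2:**
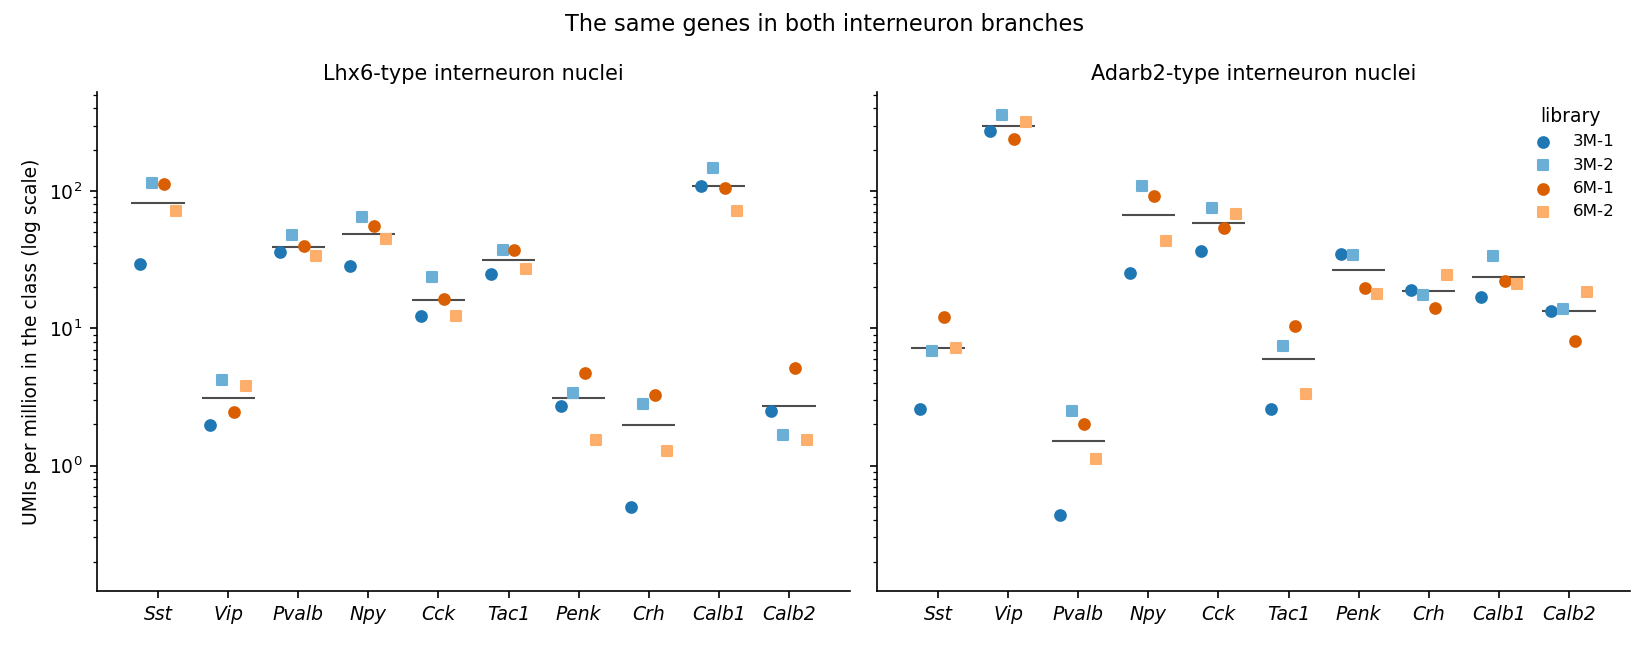
Level of each gene (CPM, log axis) in Lhx6-type (left) and Adarb2-type nuclei (right), 1 point per library and a line at the mean of 4. Sst, Pvalb, Tac1 and Calb1 are high on the left, Vip, Cck, Penk, Crh and Calb2 on the right, and Npy (28.3 to 65.2 and 25.2 to 109) on both.

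Related genes were counted over lists of receptors, other peptides, processing enzymes, identity genes, other calcium-binding proteins and genes of fast-spiking cells. Over all genes tested, 31.8% passed between the branches and 55% between interneuron-type and excitatory nuclei, in either direction. Between the branches, 10 of 12 perineuronal net and fast-spiking genes were higher in Lhx6-type nuclei and 2 lower (median log2 fold change 1.41, against 0.00 over all genes). Of 12 peptide receptor genes tested, 5 were higher and 7 lower. Chosen after their values were seen, Npy1r and Npy5r, receptors for neuropeptide Y, were lower in Lhx6-type nuclei by −3.72 ± 0.20 and −3.07 ± 0.23 on the log2 scale. Oprd1, an enkephalin receptor, and Crhbp, the binding protein of Crh, chosen in the same way, were higher by 3.96 ± 0.15 and 5.69 ± 0.25. Oprm1, also an enkephalin receptor, was lower by −1.01 ± 0.08. Between receptors of the Crh family, Crhr1 was lower (−1.51 ± 0.27) and Crhr2 higher (1.88 ± 0.30). Among other peptide genes 3 of 10 were higher and 3 lower, among 9 processing genes 1 and 3, and among 13 other calcium-binding protein genes 2 and 6. Of 18 identity genes that served in no gate, 4 were higher and 10 lower. Against excitatory nuclei, 11 of 12 fast-spiking genes, 9 of 14 other peptide genes and 6 of 18 receptor genes were higher in interneuron-type nuclei, with 1, 3 and 8 lower. Of the other lists, 17 of 18 identity genes outside the gates were higher and 1 lower, 2 of 9 processing genes higher and 5 lower, and 1 of 13 other calcium-binding protein genes higher and 7 lower.

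Spiny-type nuclei carried their own pair of these peptide genes. Of the 10 genes, 9 passed the test against interneuron-type nuclei, 2 higher and 7 lower, where 19.9% of all genes did. Penk had 309, 499 and 254 CPM in spiny-type nuclei of the 3 libraries that held any, and its log2 fold change was 4.93 ± 0.20 (edgeR adjusted p = 1.05e-40, 3 mice). Tac1 had 52.7, 55.8 and 56.5 CPM there, a log2 difference of 1.31 ± 0.31. These levels exceeded every interneuron-type level of the same gene. Within spiny-type nuclei, the 52 nuclei led by Drd2 or Adora2a held 225 of the 285 Penk UMIs and 2 of the 42 Tac1 UMIs, while 7 nuclei led by Drd1 held 31 Tac1 and 0 Penk UMIs. In striatal neurons enkephalin is known from the D2 receptor pathway and substance P from the D1 receptor pathway.

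Apart from Calb1, the other genes were scarce in spiny-type nuclei, which held 766412 UMIs in all. Pvalb and Crh were not counted there, which against a floor of 3 counts over the 3 libraries put Pvalb at least 6.67-fold lower and Crh at least 1.74-fold lower than in interneuron-type nuclei of the same libraries. Sst was counted 1 time, Vip 3 times and Npy 4 times. Calb1, with 32 UMIs, stood at 38.7, 32.8 and 62.1 CPM, and its call (log2 fold change −0.94 ± 0.27) was lost without 3M-2 (edgeR adjusted p = 0.371) and with DESeq2 (0.146). The Cck call, on 8 UMIs, was lost without any of its libraries in turn (0.169, 0.0603 and 0.121), and so was that of Crh (0.200, 0.267 and 0.128). Calb2, with 1 UMI, did not pass. The related lists stand beside 19.9% of all genes that passed in either direction. In them, 0 of 18 identity genes outside the gates were higher in spiny-type nuclei and 13 lower. For fast-spiking genes it was 0 of 10 higher and 7 lower, and for other peptide genes 0 of 10 higher and 4 lower. Among other calcium-binding protein genes 6 of 13 were higher and 2 lower, among receptor genes 4 of 13 and 1, and among processing genes 1 of 9 and 5.

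Interneuron-type nuclei with at least 1 UMI of a gene were next compared with those lacking it, mouse by mouse, to show which of the 10 genes occur together. Each gene was then tested in the split made by each of the other 9, which gave 90 comparisons, of which 60 passed the edgeR test, 22 higher and 38 lower. A pair enters 2 of these comparisons, which share nuclei. Nuclei of both branches were pooled in each split, so these calls are not separate from the branch differences above. Whether they hold within a branch was not tested. Shares of nuclei that held both genes of a pair were taken without thinning, so depth can raise them. Calls made by splitting on Pvalb took in all 9 others (8 lower), where 28% of all genes passed. Splits on Sst and on Vip called 8 of 9 each, beside 13.8% and 15.7% of all genes. Tac1 called 8 of 9 (11.2% of all genes), Penk 6 (5.82%), Calb1 6 (9.33%), Crh 5 (5.63%), Npy 4 (8.22%), Cck 3 (3.66%) and Calb2 3 (4.79%).

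A VIP group stood out in these splits. Crh was higher in nuclei with Vip than in those without, by 4.09 ± 0.27 on the log2 scale (edgeR adjusted p = 1.68e-10). Of the nuclei with Crh, 70.0%, 58.3%, 58.3% and 76.5% also held Vip (21 of 30, 21 of 36, 21 of 36 and 26 of 34), against 9.15% to 13.3% of nuclei without Crh. All 4 mice showed the same direction. Calb2 (2.90 ± 0.29), Penk (2.57 ± 0.23) and Cck (1.36 ± 0.15) were also higher in nuclei with Vip. Vip was held by 30.6% to 60.7% of nuclei with Calb2 and by 31.5% to 58.5% of those with Penk. Among all Adarb2-type nuclei, 27.8% to 41.6% held Vip.

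Somatostatin nuclei went with Npy and Calb1. Npy was higher in nuclei with Sst by 1.29 ± 0.12 and Calb1 by 1.02 ± 0.09 on the log2 scale (edgeR adjusted p = 2.26e-08 and 8.99e-09). Of nuclei with Sst, 30.7%, 38.9%, 40.7% and 36.4% held Npy, against 10.6% to 23.1% of nuclei without it. In each mouse the share was higher in nuclei with Sst. For Calb1 the shares were 34.8% to 49.3% against 17.2% to 23.8%. Among all Lhx6-type nuclei, 14.2% to 25.3% held Npy and 30.3% to 41.3% held Calb1, and the Calb1 range overlaps that of nuclei with Sst.

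Over the pooled interneuron-type nuclei, parvalbumin nuclei went with Tac1 alone among the 9. Tac1 was higher in nuclei with Pvalb by 0.82 ± 0.15 on the log2 scale (edgeR adjusted p = 0.000229), and 21.7%, 21.6%, 28.7% and 20.2% of nuclei with Pvalb held it, against 9.23% to 11.2% of the others. Each mouse showed the higher share. Among all Lhx6-type nuclei, 16.8% to 21.3% held Tac1, a range that overlaps that of nuclei with Pvalb. Sst, Vip and Npy were lower in nuclei with Pvalb by −2.15 ± 0.17, −3.72 ± 0.25 and −2.11 ± 0.18. Only 2 to 4 nuclei per library held both Pvalb and Vip.

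Of the 60 calls, 12 were lost in at least 1 fit that left out a library, with adjusted p from 0.05 to 0.246. They were Crh after a split on Sst (without 3M-1, 6M-1 or 6M-2), Tac1 on Npy (3M-2), Sst on Cck (6M-1) and Crh on Cck (each library). On Tac1 they were Cck (3M-1, 6M-1 or 6M-2), Crh (6M-1) and Calb1 (3M-2 or 6M-1). On Penk, Calb1 and Calb2 they were Tac1 on Penk (3M-1 or 3M-2), Pvalb on Calb1 (6M-1), Tac1 on Calb1 (each library), Penk on Calb1 (3M-1) and Pvalb on Calb2 (3M-1 or 6M-1). DESeq2 lost 14 of the 60, carriage of at least 2 UMIs in place of 1 lost 10 (adjusted p up to 0.972), and 20 were lost under at least 1 alternative. None of the pairs named in the VIP, somatostatin and parvalbumin groups lost its call in a fit that left out a library. This covers those fits only. Under the other alternatives 4 values were weaker in the split on Sst, 2 on Vip and 1 on Pvalb, and their genes are not named here.

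**Figure D3:**
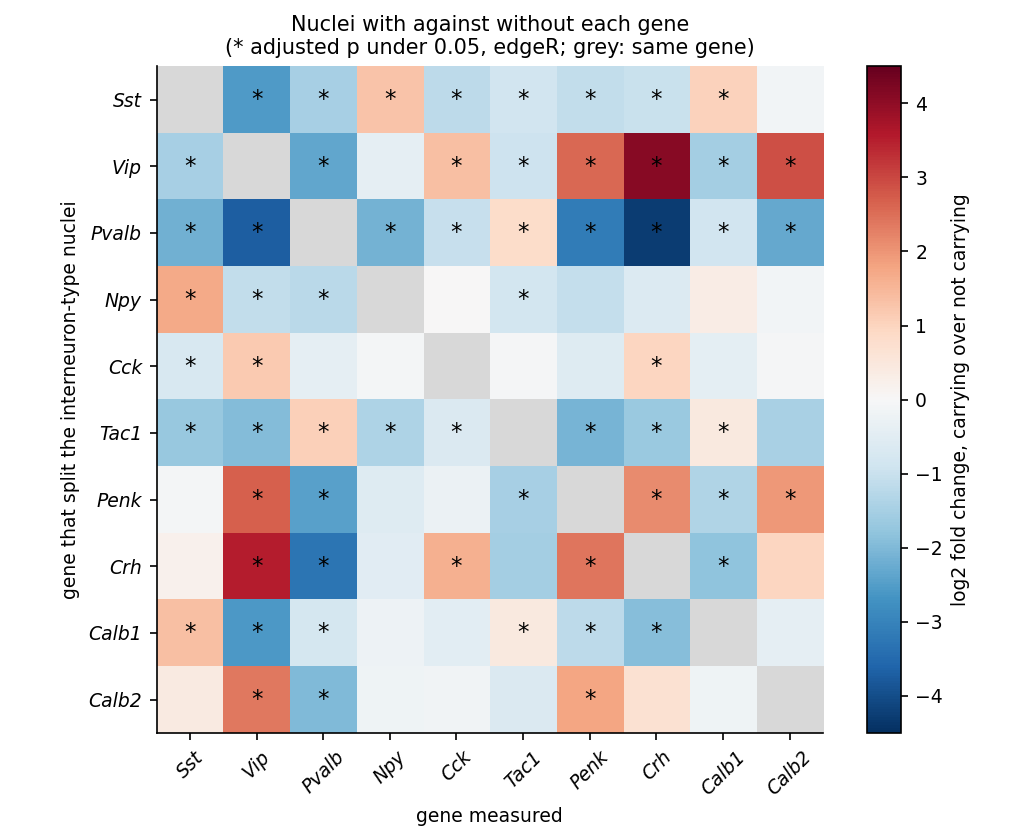
Log2 fold change of each gene (columns) between interneuron-type nuclei that carry and that lack another gene (rows), over 4 mice, with red for higher and blue for lower and * for an edgeR adjusted p under 0.05. The Vip row is red at Crh, Calb2, Penk and Cck, and the Pvalb row is blue at all genes but Tac1.

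Genes outside the 10 that went with each one were named by a rule, as the 3 with the largest rise among genes called with a mean of at least 10 CPM in the carrying nuclei. Nuclei with Vip had more Crispld2 (38.4 ± 14.0 against 0.675 ± 0.256 CPM, SD, n = 4) and more Slc5a7 and Chat, the choline transporter and the acetylcholine-synthesizing enzyme. Nuclei with Calb2 also led with Slc5a7 and Chat. Nuclei with Crh led with Crispld2, Col15a1 and Gm12153, and those with Penk with Col15a1, Crispld2 and 5033421B08Rik. Crispld2 was thus named beside 3 of the 10 genes. Nuclei with Pvalb had more Syt2, a fast synaptotagmin (144 ± 22.9 against 18.5 ± 4.35 CPM), Adamtsl5 and Gm26633.

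Nuclei with Sst had more Lama4 (69.1 ± 11.8 against 8.15 ± 2.69 CPM), Hpse and Prdm1. Nuclei with Calb1 had more Moxd1 (176 ± 31.7 against 32.5 ± 1.21 CPM), Tnni3k and Crhr2, a receptor of the Crh family. Beside Npy the rule named Gm3510, A230001M10Rik and Adgrg6, and beside Tac1 Ebf1, Gpnmb and Gm38575. Beside Cck it named Frem1 (131 ± 34.0 against 26.2 ± 8.36 CPM), Megf10 and Yjefn3. All 30 were higher in carrying nuclei of 4 of 4 mice, which their choice from the same mice largely fixed.

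The age comparison asked whether these genes differed between 3 and 6 months. No member passed the edgeR test in inhibitory, interneuron-type or excitatory nuclei, where 0%, 0% and 0% of all genes did. In interneuron-type nuclei 0 of 14944 genes passed, 644 had an unadjusted p under 0.05, and DESeq2 called 2. With the replicate number as a block, 3 genes passed. The 10 genes had a median log2 fold change of 0.03, beside 0.00 over all genes, and the smallest adjusted p among them was 0.946. The labels give 1 replicate per library and the paper 2 mice per age. Each library was taken as 1 mouse, so p-values rest on 2 mice against 2. A fit without 1 library leaves 1 mouse at that age, which is assumed to vary like the other age, so its p takes the spread from the remaining pair alone.

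Penk came nearest in interneuron-type nuclei. Its 14.4 and 12.4 CPM at 3 months lay above its 9.18 and 7.33 at 6 months, from 97, 67, 73 and 44 UMIs. In UMIs per nucleus this was 0.153, 0.102, 0.0911 and 0.0767, against 0.00684, 0.0507, 0.0169 and 0.007 in oligodendrocyte-type nuclei. The background of Penk was thus highest in 3M-2. Levels were not corrected for free RNA, and its part in this age difference was not tested. It was the only one of the 10 genes whose ages did not overlap, and the share over all genes is not given here. With 2 mice per age, the smallest exact permutation p (two-sided) is 0.333, so this separation of Penk alone cannot pass. The log2 fold change was −0.68 ± 0.25 (edgeR unadjusted p = 0.0242, adjusted p = 0.946). Without 3M-2 it was −0.81 with an adjusted p of 0.0209. Markers of spiny neurons, of which 5 or 6 of 6 were detected in each library, summed to 38.1, 35.9, 33.7 and 23.2 CPM in the same nuclei, the same order as Penk. Their part in the Penk values was not tested. Adarb2-type nuclei held 216 of the 281 Penk UMIs of interneuron-type nuclei. Their ages did not overlap either (34.7 and 34.3 against 19.7 and 17.8 CPM), which largely repeats the same counts. In all inhibitory nuclei, spiny-type included, the Penk difference was −1.29 ± 0.36 (edgeR adjusted p = 0.98), −2.11 without 6M-1 and −1.31 with no filter on low counts (6.96e-05). Spiny-type nuclei held 285 of the 625 Penk UMIs of inhibitory nuclei. Without 6M-1, only 6M-2 stood for 6 months, a library in which no spiny-type nuclei were found. The part of spiny-type nuclei in these differences was not tested. The inhibitory fit called 0 of 15096 genes, with 588 at an unadjusted p under 0.05 and 2 by DESeq2.

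Sst was 0.43 ± 0.49 higher at 6 months on the log2 scale, a difference smaller than its standard error (edgeR adjusted p = 0.964). The mice at 3 months differed more from each other (19.1 and 77.6 CPM) than the ages did. The result turned on which of them was kept: without 3M-1 it was −0.26 (adjusted p = 0.494) and without 3M-2 it was 1.72 (adjusted p = 9.24e-19). Npy had the same form, at 0.10 ± 0.39 with all libraries and 0.97 without 3M-2 (adjusted p = 4.81e-07). Low values of 3M-1 were also seen in oligodendrocyte-type nuclei, where counts of these genes serve as the measure of free RNA. They are therefore not a separate observation from the neuron values of that library. In oligodendrocyte-type nuclei Sst had 9.83, 34.1, 19.6 and 21.5 CPM and Npy 6.03, 27.7, 15.8 and 13.1, and 3M-1 was the lowest for both.

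The low Sst of 3M-1 was described further. Lhx6-type nuclei of that library were not fewer than in 6M-2 (351, 391, 470 and 346). At 2000 UMIs per nucleus, 3.70% of them carried Sst (13 of 351), against 14.1%, 18.6% and 11.6% in the other 3 libraries. Carrying nuclei of the interneuron-type in 3M-1 held 1.71 Sst UMIs on average, against 2.33 to 3.08. Genes that went with Sst were not low to the same degree: Lama4 had 23.6 CPM in Lhx6-type nuclei of 3M-1 against 30.6 to 43.2, Prdm1 4.22 against 5.35 to 6.72, and Hpse 5.95, within the range of 4.52 to 8.40. Pvalb (36.2 against 33.7 to 47.6 CPM) and Calb1 (109 against 71.1 to 147) of 3M-1 lay inside the range of the others. Fewer Sst cells and less Sst RNA per cell cannot be told apart from the summed levels.

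Calb1 fell short of the threshold in interneuron-type nuclei (−0.47 ± 0.22, edgeR adjusted p = 0.946), with 71.6 and 108 against 74.7 and 53.0 CPM. Without 3M-1 it was −0.72 (adjusted p = 7e-05). Vip (−0.22 ± 0.16), Pvalb (−0.16 ± 0.22), Tac1 (0.09 ± 0.27), Cck (0.02 ± 0.27), Crh (0.10 ± 0.29) and Calb2 (0.05 ± 0.29) had differences of less than 2 standard errors.

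In excitatory nuclei 0 of 18112 genes passed the age test, 1099 had an unadjusted p under 0.05, DESeq2 called 43 and the fit with the replicate number as a block called 7. Pvalb differed most of the 10, by 1.56 ± 0.43 on the log2 scale (edgeR adjusted p = 0.633), from 12, 12, 32 and 27 UMIs. Those counts are at or near the background described above (0.00544 to 0.0216 UMIs per nucleus, against 0.00684 to 0.0194 in oligodendrocyte-type nuclei). Penk had 2.66 and 4.13 CPM at 3 months and 1.57 and 1.38 at 6 months. The difference was −1.20 ± 0.34 (edgeR adjusted p = 0.633), and −1.45 without 3M-1, where 3M-2 alone stood for 3 months. The 6 spiny markers, all detected in each library, summed to 32.0, 30.1, 24.9 and 28.6 CPM there. In 3M-2, Penk of oligodendrocyte-type nuclei was also high, at 17.9 CPM against 1.90 to 5.03. Per nucleus, Penk of 3M-2 was lower in excitatory than in oligodendrocyte-type nuclei (0.0476 against 0.0507 UMIs), so that library's excitatory level is at background.

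Cck and Calb1, which had the most UMIs above background in excitatory nuclei, differed by −0.24 ± 0.26 and −0.14 ± 0.20. Without 3M-1 the Cck difference was −0.61 (edgeR adjusted p = 0.0455), and 3M-2 was the highest library of the 4. Vip was 0.73 ± 0.30, Sst 0.58 ± 0.37, Npy −0.14 ± 0.43, Tac1 −0.08 ± 0.38, Crh −0.45 ± 0.43 and Calb2 −0.41 ± 0.43, and Sst without 3M-2 was 1.23 (adjusted p = 0.0121). Ages did not overlap for 5 of the 10 genes (Sst, Vip, Pvalb, Penk and Crh), and the share over all genes is not given here. With 2 mice per age such separation alone cannot pass an exact permutation test (smallest two-sided p 0.333). Sst, Vip and Pvalb were also at or near background there, as was Penk of 3M-2.

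**Figure D4:**
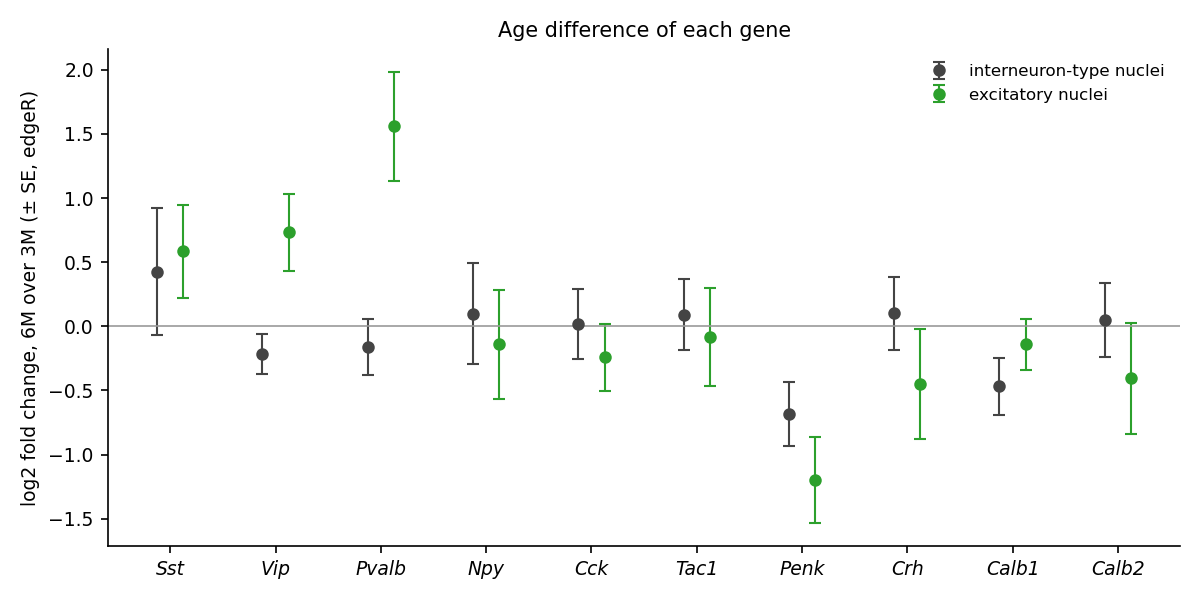
Log2 fold change of each gene from 3 to 6 months (6M over 3M, edgeR, bars are the standard error, 2 mice per age) in interneuron-type and excitatory nuclei. No point passed the test, the interneuron-type points lie between −0.68 (Penk) and 0.43 (Sst), and the excitatory points reach from −1.20 (Penk) to 1.56 (Pvalb).

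Whether the age difference itself differed between the types was tested as an interaction. None of the 10 genes passed, where 0.0224% of all genes did (4 of 17833). For Vip the interneuron-type change was lower than the excitatory change by −0.96 ± 0.17 on the log2 scale (edgeR adjusted p = 0.189), and for Pvalb by −1.72 ± 0.34 (0.237). Vip passed without 6M-1 (−0.92, adjusted p = 0.0227) and without 6M-2 (−1.02, 0.0226), and Pvalb without 6M-2 (−1.91, 0.00802). With no filter on low counts and all libraries, both passed (Vip −0.95, adjusted p = 0.000444, and Pvalb −1.71, 0.000821). The excitatory side of both is at or near background. In spiny-type nuclei 9 of 5865 genes (0.153%) passed the age test, where 6M-1 alone stood for 6 months and its spread was taken from the 3-month libraries. Of the 3 members tested there, Penk was −0.61 ± 0.38, Tac1 0.12 ± 0.62 and Calb1 0.86 ± 0.68, and none passed.

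No gene of the 6 related lists passed the age test in interneuron-type or excitatory nuclei. In interneuron-type nuclei the lists had 9 to 26 genes tested and medians from −0.22 (receptors) to 0.13 (processing enzymes). At an unadjusted p under 0.05 stood 0 of 15 receptor genes and 1 gene in each of the other lists. In excitatory nuclei the medians ran from −0.05 to 0.37 (identity genes, or 0.08 without the gate markers), and 2 to 3 genes per list had an unadjusted p under 0.05.

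Shares of nuclei that carry each gene were taken among Gad1-positive nuclei, after thinning each nucleus to 2000 UMIs so that depth could not set the share. This left 456, 538, 599 and 440 nuclei with a Gad1 UMI, whose median depth before thinning was 7987, 6131, 7816 and 8035 UMIs. Nuclei too shallow for this numbered 18 to 44 per library. Interneuron-type nuclei made up 62.3% to 66.0% of them, spiny-type 0% to 2.41%, and nuclei of no type 20.2% to 27.7%. With 2 mice per age the exact permutation test (two-sided) cannot give a p below 0.333, so no share could pass. For oligodendrocyte-type nuclei, of 2737.5 to 3212 UMIs, the same share is given for comparison. Thinning takes a larger part of the UMIs of the deeper Gad1-positive nuclei, free RNA included, so that this share can overstate their background.

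Vip was carried by 10.1%, 10.0%, 9.18% and 13.2% of Gad1-positive nuclei, with Wilson 95% intervals of 7.65% to 13.2%, 7.77% to 12.9%, 7.12% to 11.8% and 10.3% to 16.7%. All 4 intervals overlapped, and each share was above the oligodendrocyte-type share (0.993%, 1.38%, 1.88% and 3.40%). Sst was carried by 2.19%, 7.25%, 7.68% and 5.0%, and the share in 3M-1 was not above the oligodendrocyte-type share of that library (2.55%). In UMIs per nucleus without thinning, Sst of 3M-1 was above it, at 0.202 in interneuron-type and 0.0353 in oligodendrocyte-type nuclei. In the other 3 libraries the oligodendrocyte-type share was 4.68%, 4.65% and 3.40%. Npy was carried by 4.82%, 9.29%, 7.85% and 7.27% against 0.567% to 3.86%.

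Cck was carried by 3.29%, 8.92%, 3.51% and 6.59%, below the oligodendrocyte-type share of the same library each time (4.54%, 10.2%, 6.08% and 7.67%). The share alone therefore does not separate Cck from free RNA. In UMIs per nucleus without thinning, interneuron-type nuclei held 0.215, 0.317, 0.285 and 0.312, above the 0.081, 0.162, 0.114 and 0.14 of oligodendrocyte-type nuclei in every library. Pvalb was carried by 2.63%, 4.46%, 4.34% and 4.09%, Tac1 by 1.97%, 5.02%, 4.17% and 2.73%, and Calb1 by 5.70%, 9.11%, 8.68% and 5.68%. For these 3 genes the oligodendrocyte-type share was 0.332% to 1.38%, 0.426% to 1.10% and 0.993% to 3.07%. Penk was carried by 4.17%, 2.23%, 3.51% and 1.82% against 0.284% to 1.44%, and Crh by 1.67% to 2.27% against 0% to 0.332%. The ages overlapped for each of these genes.

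Calb2 was the one gene whose shares did not overlap between ages, at 0.439% and 1.12% at 3 months and 1.84% and 2.05% at 6 months. These rest on 2, 6, 11 and 9 nuclei, and their Wilson 95% intervals (0.12% to 1.58%, 0.512% to 2.41%, 1.03% to 3.26% and 1.08% to 3.84%) overlap. The difference was 1.16 percentage points (exact p = 0.333, the smallest possible). Without thinning the Calb2 shares were 3.97%, 3.40%, 4.21% and 4.25%.

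Unthinned, the mean shares at 3 and 6 months were 13.3% and 19.2% for Sst, 13.0% and 12.6% for Vip, 14.3% and 17.5% for Npy, and 11.3% and 12.9% for Pvalb. Those for Tac1 were 9.26% and 11.1%, for Penk 9.58% and 6.15%, for Crh 4.29% and 4.01%, for Calb1 22.6% and 20.9%, and for Cck 18.9% and 18.4%. Within Adarb2-type nuclei the thinned Vip share was 25.2%, 29.6%, 19.0% and 28.4%, and within Lhx6-type nuclei the Calb1 share was 16.5%, 17.1%, 15.6% and 10.4%. For Calb1 both 6-month shares lay below both 3-month shares (exact p = 0.333). Vip shares overlapped between the ages. The thinned Penk share of Adarb2-type nuclei, 4.03% to 4.87%, overlapped too.

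**Figure D5:**
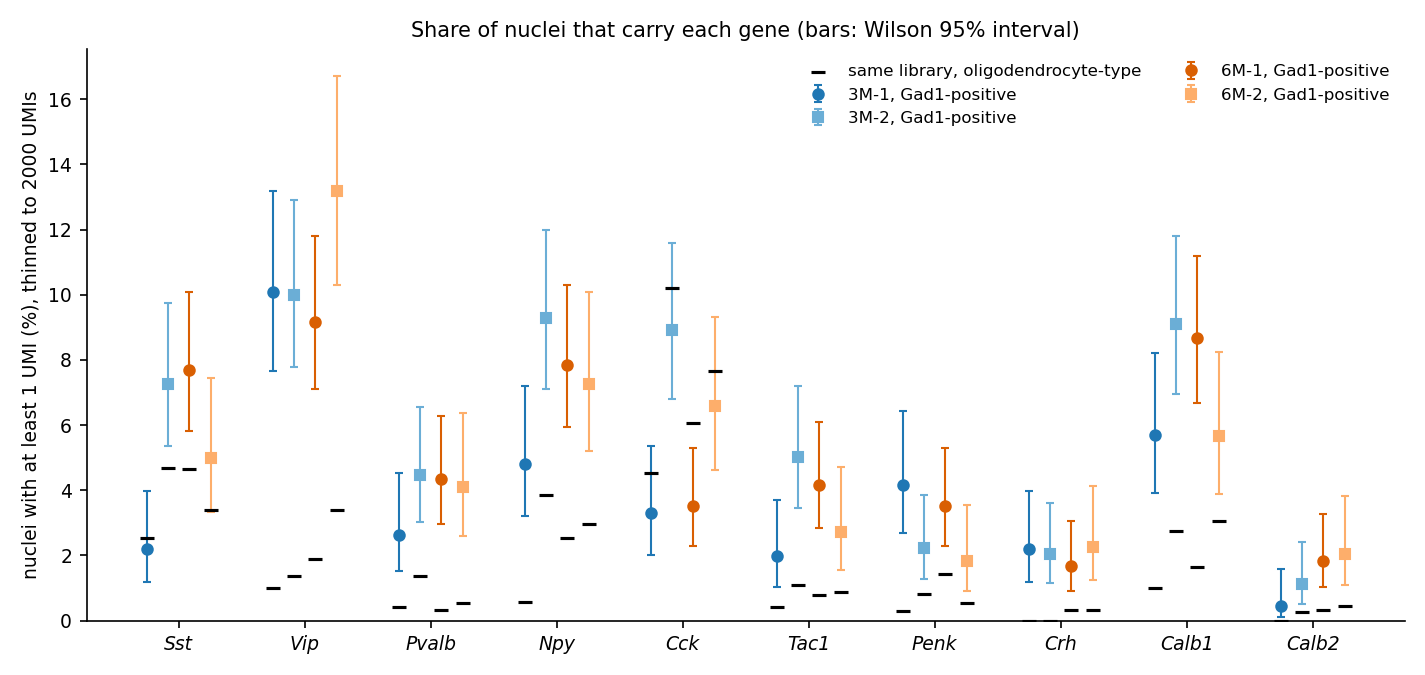
Percentage of Gad1-positive nuclei with at least 1 UMI of each gene after thinning to 2000 UMIs, 1 point per library with its Wilson 95% interval, and the share in oligodendrocyte-type nuclei of the same library as a black dash. Cck points lie at or below the dashes, Sst of 3M-1 (2.19%) lies near its dash, and Vip (9.18% to 13.2%) lies above them in all libraries.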

How the data were processed

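Raw UMI counts per gene and nucleus were deposited by the authors for 4 libraries (10x 3′ v3.1), made with Cell Ranger 7.0.0 per the file headers. The submitters' notes name mm10 and Seurat. Gene positions are from GENCODE M21 (GRCm38), which held 32158 of the 32285 identifiers.

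Following the study's filter, nuclei with at most 7000 genes and 1% mitochondrial UMIs were kept. Nuclei were typed by marker UMIs (at least 3, and 2 times those of any other type), and counts were summed per library and type where a type had at least 10 nuclei. Scrublet (scanpy 1.11.5) called 3.62% to 8.75% of nuclei doublets, which were kept and left out as an alternative. Sums were compared with edgeR 4.0.16 in R 4.3.3 (TMM, filterByExpr, quasi-likelihood test, Benjamini-Hochberg adjustment over all genes, threshold 0.05). DESeq2 1.42.0 was an alternative. Ages were fitted without a block and types of the same mouse with the mouse as a block. The batch number of each library equals its replicate number. Whether it pairs libraries across ages is not known, so it served as a block only in an alternative. Replicate differences at both ages correlated at −0.0469 (interneuron-type) and −0.0942 (excitatory) over genes. Shares were compared with exact permutation tests (scipy 1.17.1). Intervals are Wilson 95% intervals and cover counting error only, as does the limit of 3 counts. In data simulated for the interneuron-type age test (14941 genes), 84% of 2-fold and 100% of 4-fold changes were recovered, with 12 false calls. The simulation gave every gene the same fixed spread and changed only genes above a set level. Penk, Crh and Calb2 (means of 10.8, 7.27 and 6.18 CPM) lay below that level. The recovery therefore gives no power for these genes or for genes that vary more between mice.

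The 10 genes and the lists were chosen with earlier results of these data known. Named are the 10 genes and, beside each member, the 3 genes with the largest rise among those called with a mean of at least 10 CPM. List genes were to be named where called in the age fits of interneuron-type or excitatory nuclei, and none was. The receptor genes and Crhbp named between the branches fall outside this rule and were chosen after their values were seen. Alternatives changed the gates, filters, thinning depth, tool, blocks and libraries used. Protein sequences were not used here.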

Additional observations from a re-analysis of the deposited data

How the results depend on the processing

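A total of 1860 alternative values were computed, of which 1645 kept their direction and their side of the threshold. Of the age tests, with DESeq2, 2 inhibitory, 2 interneuron-type, 1 spiny-type and 43 excitatory genes were called, with no filter on low counts 37, 42 and 67 (spiny-type within 1.5 times), and 15 spiny-type genes with a gate of at least 1 marker UMI. Leaving out a library gave 0 to 240, 9 to 1756 and 0 to 1540, and the replicate block 3 interneuron-type and 7 excitatory calls. It changed no other call. Interaction calls came to 10 (DESeq2), 222 (no filter), 1 (at least 5 marker UMIs), 2 (all barcodes), 2 (doublets out) and 0 to 215 (leaving out a library). Between types, DESeq2 called 2408 genes between the branches, 1588 between spiny-type and interneuron-type and 2693 between upper-type and deep-type nuclei. Without the mouse block the first and the last fell to 2636 and 1912, at least 5 marker UMIs gave 2793 between upper-type and deep-type nuclei, and leaving out a library 1665 to 2575 for spiny-type nuclei. The cause was not tested.

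Genes called beside each member with DESeq2 numbered 990 (Sst), 1208 (Vip), 2126 (Pvalb), 510 (Npy), 197 (Cck), 798 (Tac1), 483 (Penk), 637 (Calb1) and 347 (Calb2). With at least 2 UMIs in place of 1 they numbered 789 (Cck), 879 (Tac1), 440 (Penk), 185 (Crh) and 115 (Calb2). Leaving out a library gave 690 to 1045 (Npy), 264 to 395 (Cck), 490 to 576 (Penk), 409 to 615 (Crh) and 382 to 516 (Calb2).

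Reversed age differences in interneuron-type nuclei (log2) were, with a library left out, −0.26 to 1.72 (Sst), −0.40 to 0.10 (Pvalb), −0.46 to 0.97 (Npy), −0.38 to 0.51 (Cck), −0.21 to 0.46 (Tac1), −0.10 to 0.29 (Crh) and −0.0186 to 0.11 (Calb2). Npy was −0.0808 with at least 5 marker UMIs, and Cck −0.000846 (no filter), −0.00423 (at least 1 marker UMI), −0.00883 (all barcodes) and −0.00864 (unsplit nuclei kept). In excitatory nuclei the ranges were −0.62 to 0.58 (Npy), −0.61 to 0.24 (Cck), −0.21 to 0.0542 (Tac1) and −0.30 to 0.0241 (Calb1), with Npy at 0.199 (at least 1) and 0.305 (at least 5 marker UMIs) and Tac1 at 0.135 (at least 5) and 0.00717 (all barcodes). Sst between upper-type and deep-type nuclei was 0.00243 (all barcodes) and −0.29 to 0.26.

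Differences of Gad1-positive shares in percentage points, 6M minus 3M, ranged with a library left out over −0.909 to 4.15 (Sst), −0.88 to 3.12 (Vip), −0.245 to 1.58 (Pvalb), −1.73 to 2.74 (Npy), −3.87 to 1.76 (Cck), −1.57 to 1.48 (Tac1), −1.50 to 0.432 (Penk), −0.449 to 0.154 (Crh) and −1.93 to 1.48 (Calb1). With at least 2 UMIs they were −0.356 (Sst), 0.091 (Tac1) and 0.103 (Calb1), thinned to 5000 UMIs −0.786 (Vip) and 1.79 (Tac1), unthinned −0.317 (Vip) and 1.81 (Tac1), and without doublet calls −0.127 (Vip) and 0.0199 (Calb1). Within Lhx6-type nuclei, Pvalb was −1.32 (5000 UMIs), −0.311 (unthinned) and −0.0921 to 1.71, Npy −0.93 to 5.17, and Tac1 2.71, 2.82 and −2.24 to 1.25. Within Adarb2-type nuclei, Vip was −8.38 to 1.00, Npy −1.04 (at least 2 UMIs) and −2.69 to 5.56, Cck 1.78 (1000 UMIs), 1.21 (5000), 1.54 (unthinned) and −3.33 to 2.45, Penk 0.381 (1000), Crh 0.0499 (5000), 0.33 (unthinned) and −2.62 to 1.05, and Calb2 −0.881 to 2.22.

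Could not be fitted: the spiny-type age test without a library, with at least 5 marker UMIs or with the replicate block, and the spiny-type against interneuron-type test with at least 5 marker UMIs, for want of nuclei or samples.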

Other observations

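A few nuclei outside the neuron types held much of the Crh of 1 library. In 3M-2, 1 nucleus with 13233 UMIs held 42 Crh UMIs, and another with 17395 UMIs held 30, of 201 Crh UMIs in the 8750 nuclei of that library. The next highest nucleus in the series, in 6M-2, held 6. The first of these nuclei also held 26 Sst, 5 Tac1 and 6 Penk UMIs and entered the microglia type on 3 marker UMIs. The second held 11 Tac1, 3 Penk and 0 Sst UMIs and entered no type. Neither held a UMI of Gad1, Gad2 or Slc32a1, and Scrublet called neither a doublet. What these nuclei are was not tested, and they were chosen after their values were seen.

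Over all kept nuclei, Cck and Penk were spread most widely: interneuron-type nuclei held 8.59% of Cck and 17.3% of Penk UMIs, against 55.2% of Pvalb, 52.9% of Vip and 51.3% of Npy. Excitatory nuclei held 39.6% of Cck UMIs, and the 73 spiny-type nuclei held 17.6% of Penk UMIs.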
